A study of Mus musculus with 16 samples.

Results

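The genes of glycolysis, gluconeogenesis and the pentose phosphate pathway were examined as 1 module of 40 gene symbols in sorted bone marrow progenitors of mice. All 40 symbols were found by name in the count table and together held 41 of its 54347 rows, because Aldoa occurs with 2 gene identifiers. The module runs from the glucose carriers of the plasma membrane to pyruvate kinase, and takes in the enzymes that run the route backwards, the pentose phosphate branch, the carriers that export lactate and the kinases that switch off pyruvate dehydrogenase. The members were listed by function.

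The libraries come from URE mice, in which the upstream regulatory element of Spi1, the gene of the transcription factor PU.1, is deleted, and from their WT littermates, all on a C57BL/6 background and 8 to 12 weeks old. LSKs are lineage-negative bone marrow cells positive for Sca-1 and c-Kit, the fraction that holds the blood stem cells, and GMPs are the granulocyte-monocyte progenitors, sorted as lineage-negative cells positive for c-Kit and Cd16/32 and negative for Sca-1. All cells were first enriched for c-Kit. The deletion is in the germline, so that effects of an altered marrow and effects inside the sorted cells cannot be told apart. Polyadenylated RNA was sequenced from 4 URE and 4 WT mice per cell type, 16 libraries in all, each built from at most 10 ng of RNA and lacking molecular identifiers.

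Library totals lay between 20028302 and 29128858 estimated counts, and levels are given as CPM, counts scaled to the effective library size set by the TMM method of edgeR. Spi1 stood at 124 ± 39.99 CPM in WT LSKs against 3.02 ± 1.42 in URE LSKs (mean ± SD, n = 4, as for all means here) and at 139.5 ± 40.5 CPM in WT GMPs against 21.3 ± 5.96 in URE GMPs, with no overlap in either cell type, so that the labels and the targeted gene matched in all 16 libraries. All 7 stem and early progenitor markers checked were lower in WT GMPs than in WT LSKs, and 6 of the 7 were lower in URE GMPs than in URE LSKs. Libraries with the same replicate number resembled each other across groups, and replicates 1 and 4 stood apart from replicates 2 and 3. Y-linked transcripts were high in replicates 1 to 3 of WT and in replicate 1 of URE only, so that sex was not balanced between the genotypes. A count across bulk libraries cannot tell fewer cells of a type from less RNA per cell.

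Glycolysis splits glucose into pyruvate and yields ATP and building blocks without oxygen. Its committed steps, those of hexokinase, phosphofructokinase and pyruvate kinase, are carried by several isozymes that differ in tissue and regulation, and gluconeogenesis bypasses them with enzymes of its own such as fructose-1,6-bisphosphatase. The pentose phosphate pathway branches off after hexokinase and supplies NADPH and ribose, and in the bone marrow a high glycolytic rate is a known trait of quiescent stem cells, whereas neutrophils rely on the branch for the NADPH of their oxidative burst.

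Few members of the module passed the test between the genotypes. In URE LSKs 3 members were underexpressed, the gluconeogenic Fbp1, the hexokinase Hk3 and the pyruvate dehydrogenase kinase Pdk3, and no member was overexpressed. In URE GMPs 1 member was overexpressed, the regulator Pfkfb4, and 1 was underexpressed, the sugar carrier Slc2a6. Calls required an adjusted p below 0.05 (edgeR quasi-likelihood test, Benjamini-Hochberg over all genes tested) together with a change of more than 1.5-fold. The 3 calls among 40 members tested in LSKs make 7.5%, next to 6.14% of all 15154 genes (3.76% lower and 2.38% higher), and the 2 calls among 39 members in GMPs make 5.13%, next to 8.3% of all 13829 genes (4.67% higher and 3.63% lower). The shares of the module therefore lay near those of the transcriptome in both cell types. The median log2 fold change of the members was 0.01 in LSKs and 0.27 in GMPs, and over all genes it was 0.00 and 0.01. Without 1 library at a time the median of the members ran from -0.09 to 0.07 in LSKs and from 0.08 to 0.29 in GMPs. Of the members not called, 29 of 37 in LSKs and 33 of 37 in GMPs had an estimated change under 1.5-fold, with a median standard error of 0.24 and 0.28 on the log2 scale. With the replicate number as a block, 4 members were called in LSKs and 4 in GMPs, shares that stood next to 9.46% and 16.3% of all genes.

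**Figure D1:**
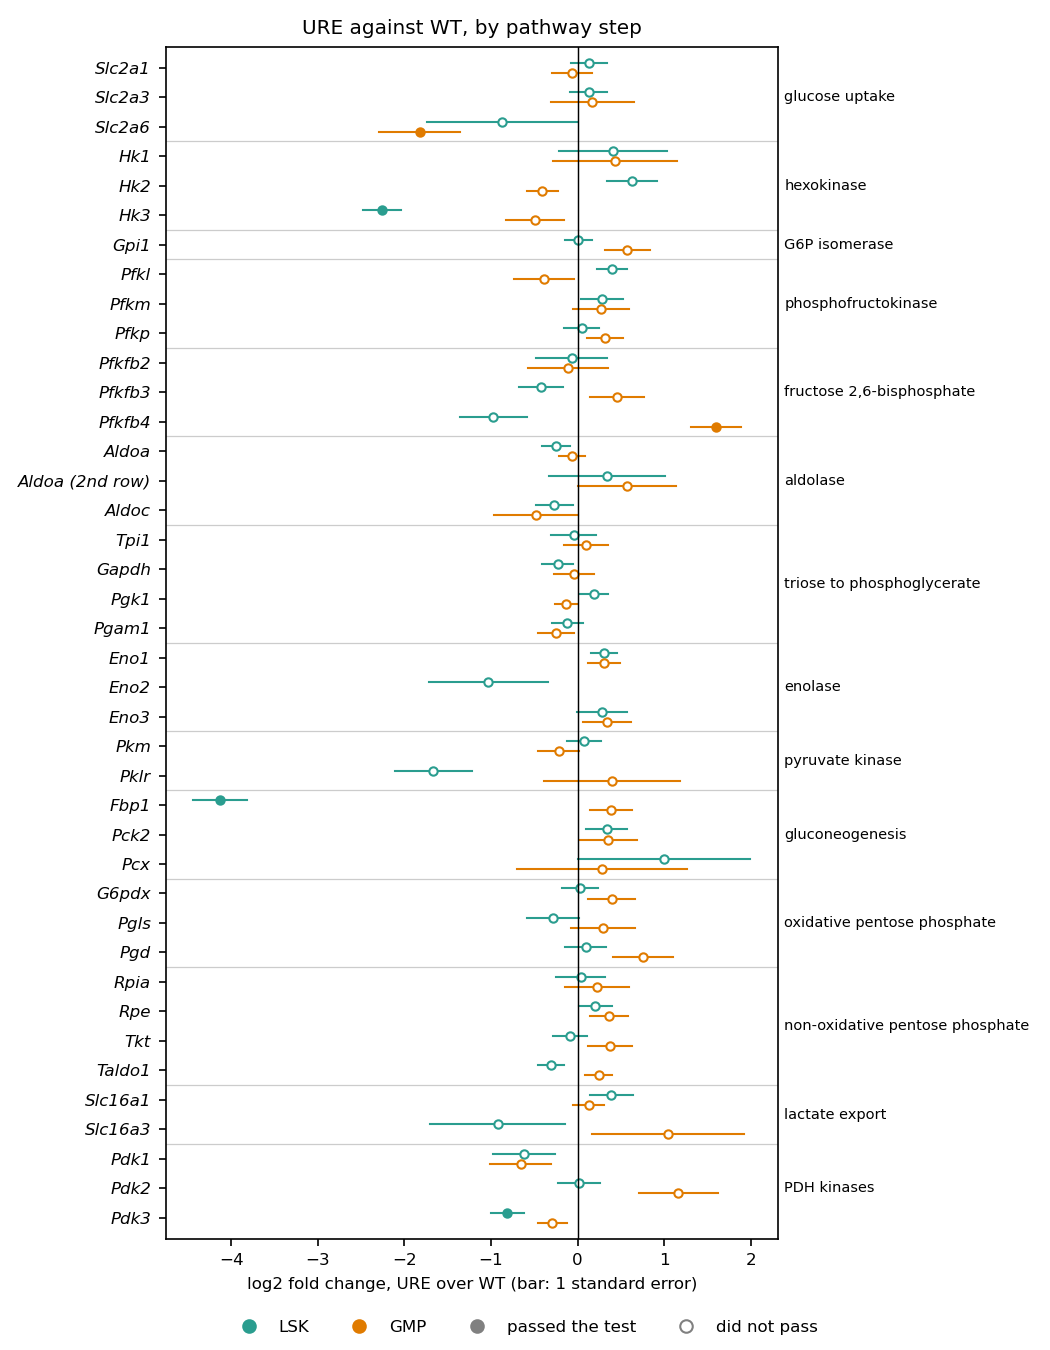
Log2 fold change of URE over WT for the members in pathway order, with LSKs and GMPs as separate points. The x axis is the log2 fold change, bars span 1 standard error on each side, and filled points passed the test. Most members sit close to 0 in both cell types, Fbp1 and Hk3 lie far to the left in LSKs, and Pfkfb4 lies on opposite sides of 0 in the 2 cell types. Fbp2, with no count in any library, is left out, and Eno2 was not tested in GMPs.

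The 250 bases before the annotated start of Fbp1, Hk3 and Pfkfb4, the 3 members whose genotype call held in every fit without 1 library, are printed here to show which of them carry the letters bound by PU.1, the factor that the URE mice lack in part. The sequences are from RefSeq for GRCm38.p6 and are written in the direction of the gene. Capitals mark AGGAAG, the core of an ETS site as bound by the family of PU.1, on either strand (read as CTTCCT on the other strand), and for Fbp1 also GAGGAAGT, the longer PU.1 match, which holds the core within it. Pfkfb4 has neither, and its sequence is shown only up to the annotated start of the gene in GENCODE vM21. This start lies upstream of the RefSeq start and leaves 126 bases.
Fbp1, chr13:62888283-62888532, minus strand: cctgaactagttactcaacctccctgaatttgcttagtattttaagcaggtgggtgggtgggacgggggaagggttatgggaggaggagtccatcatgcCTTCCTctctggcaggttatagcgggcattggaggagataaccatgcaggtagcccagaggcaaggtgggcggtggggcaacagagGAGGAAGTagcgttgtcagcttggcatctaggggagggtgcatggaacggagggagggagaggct
Hk3, chr13:55021386-55021635, minus strand: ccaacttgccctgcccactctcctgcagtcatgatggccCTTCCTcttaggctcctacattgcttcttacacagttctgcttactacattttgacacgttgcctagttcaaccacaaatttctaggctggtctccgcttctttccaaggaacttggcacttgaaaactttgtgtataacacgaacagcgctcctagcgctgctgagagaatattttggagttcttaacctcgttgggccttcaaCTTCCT
Pfkfb4, chr9:108991652-108991777, plus strand: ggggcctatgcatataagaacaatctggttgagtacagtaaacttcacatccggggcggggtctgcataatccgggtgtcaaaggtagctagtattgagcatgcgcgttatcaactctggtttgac
GAGGAAGT begins 65 bases before the start of Fbp1. It occurs on either strand in 3.2% of the 32851 promoters of 300 bases in the table and in 2 of the 57 promoters of the members, those of Fbp1 and Rpe. AGGAAG is common, in 35.4% of all promoters and 31.6% of those of the members, and in Hk3 it lies 211 and 6 bases before the start, both times on the other strand. The match in Rpe, a pentose phosphate gene, went with no called change in either cell type, and a match is a description of letters and not of binding.

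Fbp1 encodes fructose-1,6-bisphosphatase, the enzyme that undoes the phosphofructokinase step, and showed the largest genotype difference of the module. The gene lies at chr13:62864753-62888282 (GRCm38, minus strand). In WT LSKs its level was 30.1, 38.8, 44.7 and 23.7 CPM in replicates 1 to 4, and in URE LSKs it was 1.56, 1.72, 2.65 and 2.13 CPM. All 4 URE libraries lay far below the lowest WT library. The log2 fold change was -4.12 ± 0.31 (SE, adjusted p = 0.000128), a 17.4-fold lower level. It was -3.89 with replicates 1 and 4 alone and -4.29 with replicates 2 and 3 alone, and leaving out any 1 library kept it between -4.28 and -3.93 with an adjusted p of at most 0.00103.

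In GMPs no such difference was detected. WT GMPs held 14.6, 23.96, 26.96 and 15.8 CPM of Fbp1 and URE GMPs 30.6, 24.6, 24.3 and 27.7 CPM. The groups overlapped, and the change of 0.39 ± 0.25 did not pass (adjusted p = 0.454). The genotype effect in GMPs exceeded that in LSKs by 4.49 ± 0.37 on the log2 scale in the interaction test over all 16 libraries (adjusted p = 4.77e-05), and with either pair of replicates alone it was 4.81 and 4.22 with an adjusted p of 0.00265 and 0.0474. Seen along differentiation, URE GMPs had a 12.9-fold higher level than URE LSKs (3.69 ± 0.26, adjusted p = 6.32e-05), whereas WT GMPs had a lower level than WT LSKs (-0.77 ± 0.28, adjusted p = 0.0718, and 0.000717 with the replicate block, where it was called). Spi1 itself was 6.64-fold lower in URE GMPs than in WT GMPs. It was also 6.85-fold higher in URE GMPs than in URE LSKs (2.78 ± 0.42, adjusted p = 0.00183). Between WT GMPs and WT LSKs Spi1 was not called (0.16 ± 0.30, adjusted p = 0.747). The genotype effect on Spi1 differed between the cell types by 2.64 ± 0.52 in the interaction test (adjusted p = 0.0218). The part of Spi1 in the level of Fbp1 was not tested.

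The other bisphosphatase gene, Fbp2 of muscle, had 0 counts in all 16 libraries, so that Fbp1 was the only gene of this step that was detected. Of the other gluconeogenic genes, Pck2, the mitochondrial phosphoenolpyruvate carboxykinase, stood at 120.2 ± 36.5 CPM in WT LSKs, 155 ± 29.4 in URE LSKs, 80.3 ± 31.7 in WT GMPs and 103 ± 32.3 in URE GMPs, with no call. Under the replicate block Pck2 was lower in GMPs than in LSKs in WT (-0.63, adjusted p = 0.00118) and in URE (-0.66, adjusted p = 0.00651). Of the per-length level of Fbp1, Pck2 and Pcx together, Fbp1 made 55.3% ± 14.8 in WT LSKs, 5.51% ± 2.24 in URE LSKs, 51.7% ± 18.6 in WT GMPs and 52.7% ± 7.52 in URE GMPs. By the longest transcript Fbp1 made 46.8% in WT LSKs, 3.91% in URE LSKs, 43.8% in WT GMPs and 44.05% in URE GMPs. Pck2 then made the larger share, at 51.3%, 91.1%, 51.8% and 51.99% in the same order. The 3 genes whose log2 CPM followed that of Fbp1 most closely over the 16 libraries were Plet1os (Pearson's r = 0.933), Epha7 (0.917) and Scarna2 (0.914), a description over libraries that share groups and replicate numbers. Plet1os and Scarna2 were near the limit of counting, with group means of at most 1.27 and 0.70 CPM. Epha7 averaged 0.361 CPM in URE LSKs and 44.2 CPM in URE GMPs.

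Hk3, a hexokinase found mainly in myeloid cells, was the second member that fell in URE LSKs. It lies at chr13:55005985-55021385 (minus strand), and 34 of its 3682 exonic bases overlap Unc5a on the other strand. WT LSKs had 79.9, 80.1, 50.3 and 90.04 CPM in replicates 1 to 4 and URE LSKs 15.8, 18.8, 14.8 and 14.6 CPM. The groups did not overlap, and the 4 URE libraries differed little among themselves. The log2 fold change was -2.26 ± 0.22 (adjusted p = 0.000406, 4.78-fold lower), and it was -2.52 with replicates 1 and 4 alone and -1.98 with replicates 2 and 3 alone.

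GMPs of both genotypes had far more Hk3 than LSKs. WT GMPs held 329, 281, 138 and 299 CPM and URE GMPs 154, 291, 105 and 203 CPM, with replicate 3 lowest in both. The genotypes overlapped there (-0.49 ± 0.33, adjusted p = 0.487). From LSKs to GMPs Hk3 rose by 1.79 ± 0.29 on the log2 scale in WT (adjusted p = 0.00209) and by 3.51 ± 0.30 in URE (adjusted p = 0.000131). The genotype effects in the 2 cell types differed by 1.76 ± 0.43, which missed the threshold (adjusted p = 0.0595). The difference passed with the replicate block (adjusted p = 0.00324), DESeq2, upper quartile scaling, the stricter filter and replicates 1 and 4 alone. It did not pass with replicates 2 and 3 alone (1.87, adjusted p = 0.929) or with the Y-linked covariate (adjusted p = 0.0721). Of the 16 fits without 1 library, 2 called it.

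The other hexokinases were not called between the genotypes. Hk1, the widely expressed form, ranged from 61.7 to 369 CPM in WT LSKs and from 111 to 508 in URE LSKs, a spread that followed the replicates. Hk2, the inducible form, stood at 34.03 ± 15.5 CPM in WT LSKs and 53.4 ± 9.68 in URE LSKs (0.63 ± 0.29, adjusted p = 0.354), and at 87.3 ± 7.55 in WT GMPs and 66.4 ± 14.7 in URE GMPs (-0.41 ± 0.18, adjusted p = 0.236). With the replicate block the effects on Hk2 in the 2 cell types differed by -1.13 (adjusted p = 0.0259), which the unblocked test did not call (adjusted p = 0.212) unless replicate 2 of WT LSKs was left out (-1.41, adjusted p = 0.0322) or replicates 1 and 4 were taken alone (-1.62, adjusted p = 0.0347). Of the per-length level of the 3 hexokinases, Hk3 made 42.7% ± 10.4 in WT LSKs and 11.3% ± 6.09 in URE LSKs, against 64.1% ± 6.47 in WT GMPs and 51.6% ± 15.2 in URE GMPs. The lowest share in a WT LSK library was 31.4% and the highest in a URE LSK library 18.2%. The summed level of the 3 genes ranged from 138 to 474 CPM in WT LSKs and from 189 to 584 CPM in URE LSKs.

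**Figure D2:**
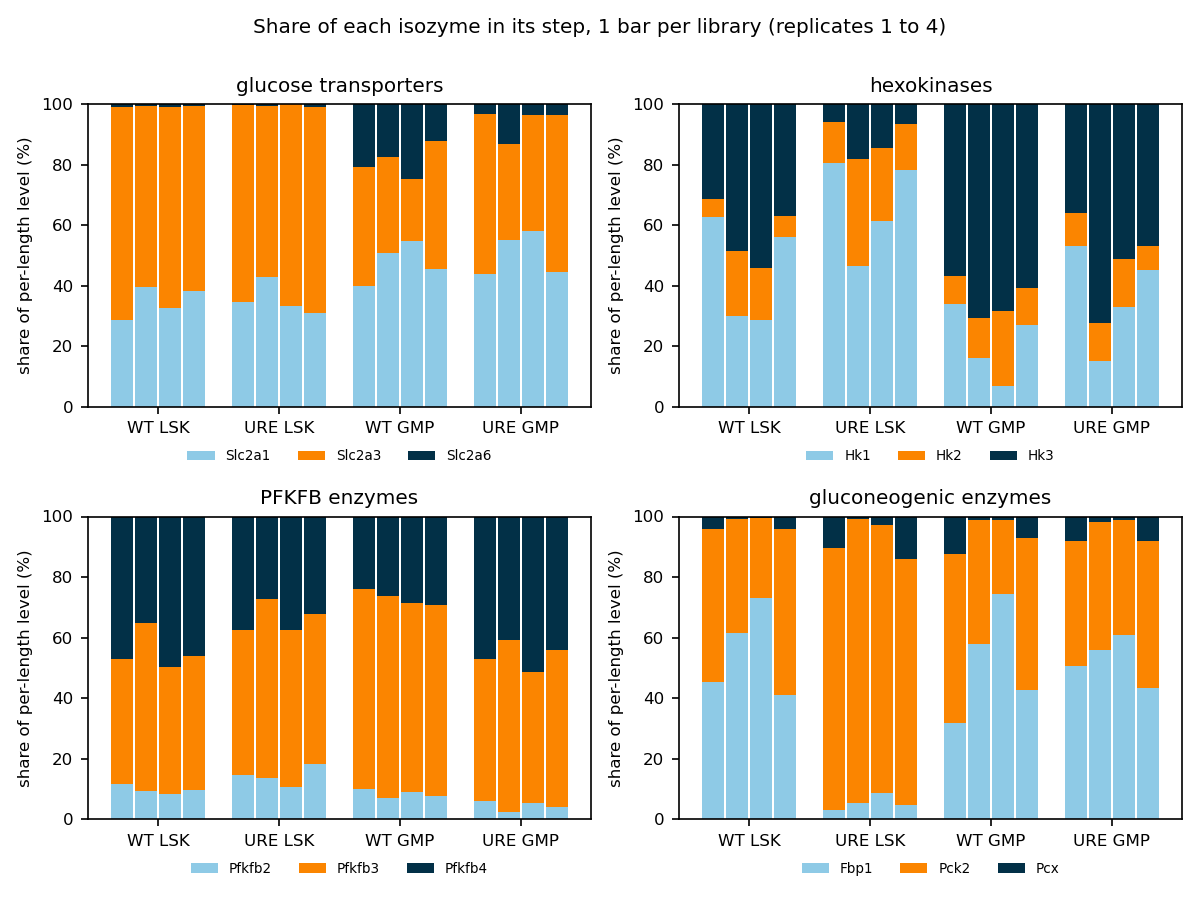
Share of each gene in the per-length level (CPM per kb of exons) of its panel, in percent, with 1 bar per library in the order of replicates 1 to 4. The gluconeogenic genes act at different steps and are not isozymes. Hk3 makes up to 18.2% of hexokinase in URE LSKs and at least 31.4% in WT LSKs, Fbp1 makes at most 8.57% of the gluconeogenic genes in URE LSKs, Pfkfb4 makes less in WT GMPs than in URE GMPs in every library, and Slc2a3 makes most of the glucose carriers in LSKs.

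The kinases of pyruvate dehydrogenase switch off the entry of pyruvate into the citrate cycle. Pdk3, on the X chromosome, had 95.4, 96.005, 70.8 and 123 CPM in WT LSKs and 53.8, 66.04, 53.2 and 50.3 CPM in URE LSKs. The groups did not overlap, with 66.04 CPM as the highest URE value and 70.8 CPM as the lowest WT value. The change was -0.81 ± 0.19 (adjusted p = 0.0357, 1.76-fold lower). This call was the least steady of the 3, since 6 of the 8 fits without 1 library lost it (adjusted p from 0.0255 to 0.117). With replicates 1 and 4 alone the change was -1.098 (adjusted p = 0.021) and with replicates 2 and 3 alone -0.51 (adjusted p = 0.765), and when Y-linked transcripts entered as a covariate the estimate was -0.92 with an adjusted p of 0.0581.

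In GMPs Pdk3 did not differ by the test (92.3 ± 11.4 CPM in WT and 76.02 ± 14.4 in URE, -0.29 ± 0.17, adjusted p = 0.393). Pdk2 held 29.5, 16.9, 5.23 and 25.7 CPM in WT GMPs and 56.01, 32.2, 34.9 and 50.02 CPM in URE GMPs, with every URE library above every WT library. The change of 1.16 ± 0.46 did not pass without the block (adjusted p = 0.185) and passed with it (1.34, adjusted p = 0.0219). In WT, Pdk2 was lower in GMPs than in LSKs (-1.59 ± 0.47, adjusted p = 0.0328). Pdk1, a known target of hypoxia signalling, was not called, with 113 ± 61.003 CPM in WT LSKs, 75.5 ± 14.2 in URE LSKs, 65.9 ± 21.5 in WT GMPs and 42.1 ± 17.4 in URE GMPs. Under the block Pdk1 was lower in GMPs than in LSKs in WT (adjusted p = 0.0215) and in URE (adjusted p = 0.0141).

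Pfkfb4 is a bifunctional enzyme that makes and breaks fructose 2,6-bisphosphate, the strongest activator of phosphofructokinase, and it was the member that rose in URE GMPs. It lies at chr9:108991778-109032228 (plus strand). WT GMPs held 13.2, 7.72, 8.74 and 12.1 CPM in replicates 1 to 4 and URE GMPs 41.7, 25.2, 21.6 and 38.4 CPM. Every URE library lay above every WT library. The log2 fold change was 1.59 ± 0.29 (adjusted p = 0.00936, 3.02-fold higher). It stayed between 1.43 and 1.73 without any 1 library (adjusted p from 0.0075 to 0.0356), and with replicates 2 and 3 alone it was 1.48 and not called (adjusted p = 0.135).

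In LSKs the estimate pointed the other way. WT LSKs held 28.7, 12.4, 17.1 and 21.9 CPM and URE LSKs 14.9, 4.54, 11.7 and 10.6 CPM. The groups overlapped, but within each replicate number the URE value was the lower. The change of -0.98 ± 0.39 was not called without the block (adjusted p = 0.247) and was called with it (-1.03, adjusted p = 0.0155). The effects in the 2 cell types differed by 2.54 ± 0.50 (adjusted p = 0.0223, and 0.000257 with the block). This call was lost without replicate 4 of URE GMPs, replicate 4 of URE LSKs or replicate 2 of WT GMPs, where the adjusted p reached 0.0596, and with replicates 2 and 3 alone (2.40, adjusted p = 0.699). From LSKs to GMPs Pfkfb4 fell by 0.95 on the log2 scale in WT (SE 0.30, adjusted p = 0.0427) and rose by 1.55 ± 0.38 in URE (adjusted p = 0.0175).

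The sister genes were not called between the genotypes. Pfkfb3, the form with the highest kinase activity, stood at 39.2 ± 12.4 CPM in WT GMPs and 54.4 ± 18.5 in URE GMPs (0.46 ± 0.31, adjusted p = 0.487), and it was higher in GMPs than in LSKs of URE mice (1.15 ± 0.31, adjusted p = 0.0274). Pfkfb2, the heart form, was at 2.19 to 10.5 CPM in all libraries and was not called. Of the per-length level of the 3 genes, Pfkfb4 made 44.5% ± 6.35 in WT LSKs, 33.6% ± 4.87 in URE LSKs, 26.98% ± 2.33 in WT GMPs and 45.8% ± 4.502 in URE GMPs. The highest share in WT GMPs was 29.2% and the lowest in URE GMPs 40.7%.

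**Figure D3:**
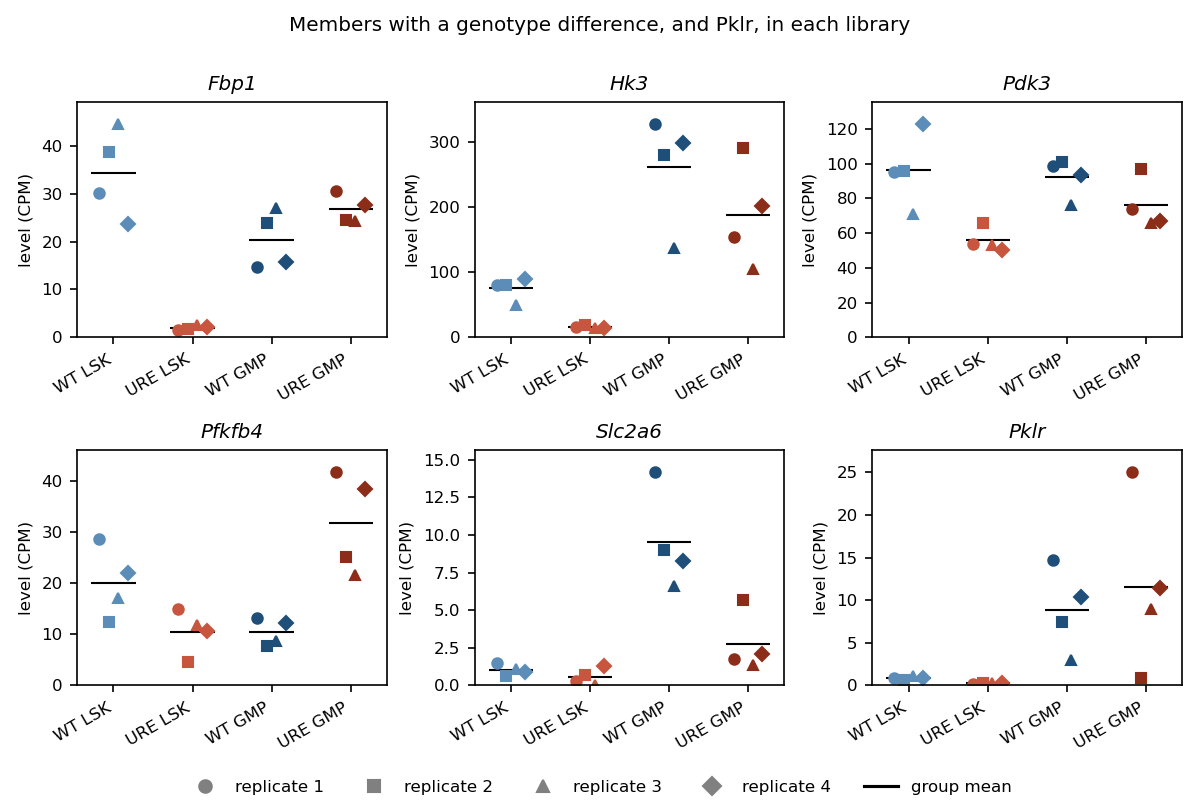
Level in CPM of the 5 members called between URE and WT, and of Pklr, in each of the 16 libraries. Symbols mark the replicate number, lines the group mean, and each y axis starts at 0. Fbp1, Hk3 and Pdk3 do not overlap between the genotypes in LSKs, Pfkfb4 and Slc2a6 do not overlap in GMPs, and Pklr reaches 25.1 CPM in URE GMPs but stays at or under 1.05 CPM in LSKs.

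Glucose enters through the Slc2a carriers, and Slc2a6, a member of the family found in lysosomal membranes of myeloid cells, was the member that fell in URE GMPs. It had 14.2, 8.97, 6.59 and 8.296 CPM in WT GMPs and 1.78, 5.69, 1.38 and 2.08 CPM in URE GMPs. The groups did not overlap, though replicate 2 of URE GMPs, the highest of its group, came near the lowest WT library. The change was -1.82 ± 0.47 (adjusted p = 0.0441), and -1.96 with the block (adjusted p = 0.0112). The call was lost in 7 of the 8 fits without 1 library, all but the one without replicate 2 of URE GMPs (-2.46, adjusted p = 0.00494). It was lost with replicates 2 and 3 alone (-1.18, adjusted p = 0.563) and kept with replicates 1 and 4 alone (-2.56, adjusted p = 0.00789), and it was lost with the Y-linked covariate (adjusted p = 0.136) and in the joint fit of all libraries (adjusted p = 0.128). In LSKs the gene was near the limit of counting, with 1.504, 0.637, 1.09 and 0.886 CPM in WT and 0.312, 0.695, 0 and 1.29 CPM in URE.

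The main glucose carriers of the cell surface did not differ between genotypes by the test, and were higher in LSKs than in GMPs. Slc2a3, a carrier of high affinity, stood at 179 ± 30.9 CPM in WT LSKs and 43.6 ± 24.2 in WT GMPs (-2.05 ± 0.44, adjusted p = 0.00806), and at 199.6 ± 49.996 CPM in URE LSKs and 48.99 ± 19.6 in URE GMPs (-2.07 ± 0.32, adjusted p = 0.00202). Slc2a1, the basal carrier, fell by 0.81 in WT (SE 0.27, adjusted p = 0.0495) and by 1.05 in URE (SE 0.17, adjusted p = 0.00262). Slc2a6 rose in WT (3.19 ± 0.37, adjusted p = 0.000411) and was not called in URE (2.19 ± 0.93, adjusted p = 0.126), and the 2 effects did not differ by the interaction test (adjusted p = 0.85). The summed level of the 3 carriers was 177 to 259 CPM in WT LSKs, 197 to 326 in URE LSKs, 35.1 to 107 in WT GMPs and 58.4 to 96.1 in URE GMPs, with no overlap between the cell types.

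Many members differed between the cell types. Between GMPs and LSKs of WT mice, 17 members were higher and 5 lower in GMPs, 22 of 39 tested (56.4%, next to 27.3% of all 14767 genes). Leaving out 1 library gave 15 to 19 members higher and 2 to 5 lower. In URE mice 20 were higher and 5 lower, 25 of 39 (64.1%, next to 21.8% of all 14395 genes). Among all genes 11.5% were called higher and 15.8% lower in WT, and 9.2% higher and 12.6% lower in URE, so that the module leaned to the higher side while the transcriptome leaned to the lower. The median log2 fold change of the members was 0.65 in WT and 0.82 in URE, next to -0.09 over all genes in both. It ran from 0.37 to 0.75 in WT and from 0.80 to 0.97 in URE without 1 library at a time. The 2 genotypes share no library in these comparisons, and of 39 members 14 were higher and 3 lower in both, next to 5.61% and 8.62% of the 13880 genes tested in both. Markers of several cell types moved with this difference. Of 9 neutrophil progenitor markers 4 were higher in WT GMPs and 5 in URE GMPs. Their summed level ran from 1041 to 1653 CPM in WT LSKs to 54671 to 70103 in WT GMPs, where Mpo alone averaged 50493 CPM. All 6 monocyte progenitor and all 4 basophil and mast cell markers were also higher in WT GMPs. Of 8 erythroid markers 3 were higher there and 1 lower, and of 3 megakaryocyte markers tested 2 were higher. The part of these markers in the difference was not tested.

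**Figure D4:**
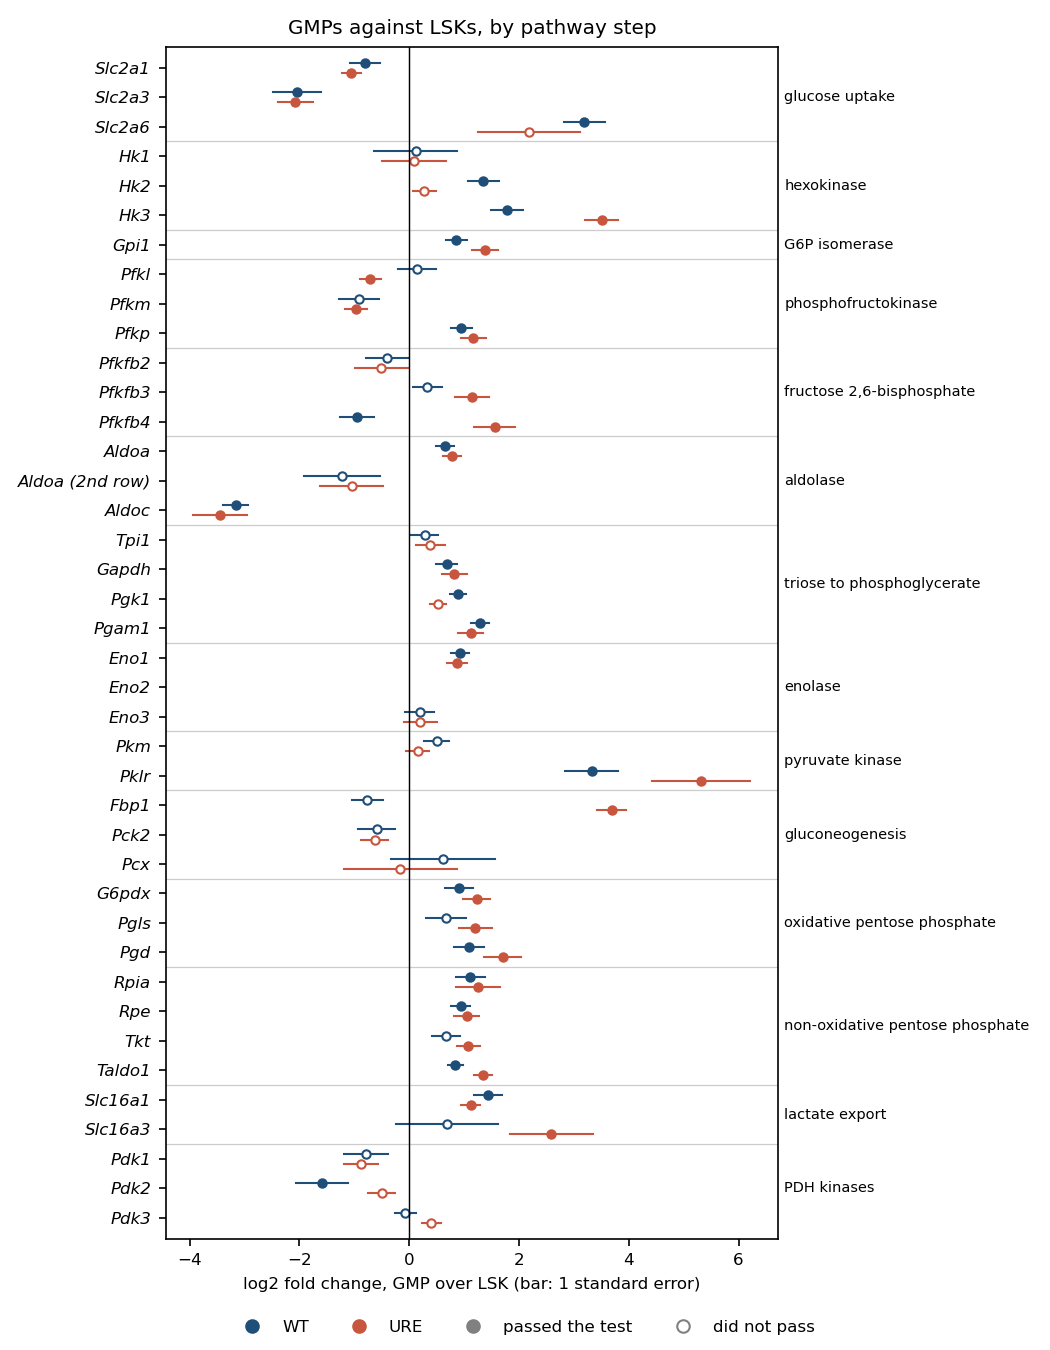
Log2 fold change of GMPs over LSKs for the members in pathway order, with WT and URE as separate points. The x axis is the log2 fold change, bars span 1 standard error on each side, and filled points passed the test. The pentose phosphate genes and the triose and enolase steps lie to the right of 0 in both genotypes, the carriers Slc2a1 and Slc2a3 and the aldolase Aldoc lie to the left, and Pfkfb4 and Fbp1 lie on opposite sides in WT and URE.

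From glucose 6-phosphate to pyruvate, most steps were higher in GMPs. Gpi1, the isomerase, rose by 0.86 ± 0.19 in WT and 1.37 ± 0.24 in URE. Of the phosphofructokinases, which commit the sugar to glycolysis, Pfkp rose (0.95 ± 0.19 in WT and 1.17 ± 0.22 in URE). The other 2 did not: Pfkl, the liver form, was lower in GMPs than in LSKs of URE mice (-0.71 ± 0.19, adjusted p = 0.0277) with an estimate of 0.14 ± 0.34 in WT. Pfkm, the muscle form, was lower in URE (-0.97 ± 0.20, adjusted p = 0.0078) and, with the block, in WT (-0.96, adjusted p = 0.000319). Neither genotype difference in these falls passed the interaction test (adjusted p = 0.471 for Pfkl and 1 for Pfkm).

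The aldolases split the sugar into trioses and moved in opposite directions. Aldoa, the main form, rose by 0.65 ± 0.16 in WT and 0.78 ± 0.16 in URE. Aldoc, the form of the brain, held 22.3, 22.3, 18.1 and 23.2 CPM in WT LSKs and 19.1, 16.6, 23.1 and 14.1 in URE LSKs, against 2.51, 2.74, 1.81 and 2.59 in WT GMPs and 1.54, 0.679, 3.43 and 1.18 in URE GMPs. Every LSK library lay above every GMP library, and the log2 fold change was -3.16 ± 0.22 in WT (adjusted p = 3.84e-05) and -3.44 ± 0.49 in URE (adjusted p = 0.00141). Aldoc nevertheless made only 3.02% ± 0.303 of the per-length aldolase level in WT LSKs and 2.94% ± 0.274 in URE LSKs (1.91% and 1.86% by the longest transcript). The second Aldoa record was at 0.0977 to 2.63 CPM and lies next to the first on the same strand, so that reads may be split between them.

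Among the later steps, Gapdh rose by 0.68 ± 0.19 in WT and 0.82 ± 0.22 in URE, Pgam1 by 1.29 ± 0.16 and 1.12 ± 0.23, and Eno1 by 0.92 ± 0.16 and 0.87 ± 0.18. Pgk1, the first step that yields ATP, rose in WT (0.88 ± 0.14, adjusted p = 0.00197) and in URE passed the test at 0.52 ± 0.15 (adjusted p = 0.0336) but fell short of 1.5-fold. Tpi1 was not called in either genotype (0.28 ± 0.25 and 0.38 ± 0.26). Gapdh, often taken as a reference gene, differed by -0.23 ± 0.18 between the genotypes in LSKs and by -0.04 ± 0.23 in GMPs, both uncalled. Eno3 was at 4.15 to 10.4 CPM, and Eno2, the neuronal enolase, had no count in 3 of 4 WT GMP libraries and in 3 of 4 URE GMP libraries.

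Pyruvate kinase closes the pathway, and its 2 genes differed in their pattern. Over the summed exonic length Pkm stood at 271 ± 52.7 CPM per kb in WT LSKs, 291 ± 49.7 in URE LSKs and 386 ± 96.5 in WT GMPs, and in URE GMPs at 333 ± 75.1 against 394 ± 66.95 for Eno1, a difference within their spread. Pkm was not called between cell types or genotypes. Pklr, the form of liver and red cells, held 0.896, 0.6704, 1.05 and 0.886 CPM in WT LSKs and 0.156, 0.331, 0.294 and 0.334 CPM in URE LSKs, and 14.7, 7.43, 2.93 and 10.4 in WT GMPs and 25.1, 0.887, 8.96 and 11.4 in URE GMPs. It was higher in GMPs by 3.32 ± 0.48 in WT (adjusted p = 0.00124) and by 5.31 ± 0.90 in URE (adjusted p = 0.00315), with replicate 2 of URE GMPs within the range of WT LSKs. The 4 URE LSK libraries lay below the 4 WT ones, at a change of -1.67 ± 0.44 that missed the threshold (adjusted p = 0.0618) and passed it by DESeq2. Pklr shares 711 of its 3236 exonic bases with Hcn3 on the other strand, and the libraries carry no strand. Summed erythroid markers were at 146 to 438 CPM in WT GMPs and 55.6 to 478 in URE GMPs, against 44.8 to 130.1 and 22.6 to 158 in LSKs, and their part in the level of Pklr was not tested.

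The pentose phosphate pathway rose almost as a whole from LSKs to GMPs. In URE mice all 7 genes were called higher in GMPs than in LSKs, next to 9.2% of all genes, and in WT mice 5 of 7, next to 11.5%. In the oxidative arm, which makes NADPH, G6pdx, the entry enzyme, stood at 70.9, 67.6, 40.99 and 76.8 CPM in WT LSKs and 153, 129.6, 80.1 and 123 in WT GMPs (0.91 ± 0.25, adjusted p = 0.025), and at 68.8, 63.2, 74.9 and 59.1 in URE LSKs and 152, 170.3, 96.3 and 226 in URE GMPs (1.23 ± 0.24, adjusted p = 0.00621). Within each genotype all GMP libraries were above all LSK libraries. G6pdx shares 418 of 3080 exonic bases with Ikbkg on the other strand. Pgd, which releases the second NADPH, rose by 1.08 ± 0.27 in WT and 1.699 ± 0.33 in URE, and Pgls, the lactonase between them, rose in URE (1.198 ± 0.30, adjusted p = 0.0194) and, with the block, in WT (0.64, adjusted p = 0.0199). Pgls shares 776 of 3770 exonic bases with Fam129c on the same strand.

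In the non-oxidative arm, which links ribose to the glycolytic intermediates, Rpia rose by 1.11 ± 0.26 in WT and 1.25 ± 0.39 in URE and Rpe by 0.94 ± 0.18 and 1.049 ± 0.23. The transaldolase Taldo1 rose by 0.84 ± 0.14 and 1.34 ± 0.17, and the transketolase Tkt by 1.07 ± 0.21 in URE (adjusted p = 0.0061) and, with the block, by 0.65 in WT (adjusted p = 0.000831). The summed level of the oxidative arm was 148 to 241 CPM in WT LSKs, 171 to 215 in URE LSKs, 335 to 416 in WT GMPs and 367 to 662 in URE GMPs. Per length Taldo1 was the most abundant of the 4 genes of the non-oxidative arm, with 64.4% ± 5.33 of its level in WT GMPs. No pentose phosphate gene was called between URE and WT in either cell type. The estimates in GMPs ranged from 0.23 for Rpia to 0.76 for Pgd, where URE GMPs held 203, 311, 116 and 368 CPM and WT GMPs 193, 166, 96.6 and 128 CPM with overlap (adjusted p = 0.258).

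Lactate leaves the cell through the monocarboxylate carriers. Slc16a1 held 55.7, 44.6, 39.9 and 88.8 CPM in WT LSKs and 171, 152, 129 and 168 CPM in WT GMPs (1.43 ± 0.26, adjusted p = 0.00336), and it rose by 1.12 ± 0.18 in URE (adjusted p = 0.00227). Slc16a3, the carrier of highly glycolytic cells, held 25.3, 4.19, 0.928 and 12.7 CPM in WT GMPs and 30.4, 15.8, 4.92 and 38.3 CPM in URE GMPs. The groups overlapped, but the URE library was the higher within each replicate number. The change of 1.04 ± 0.88 was not called (adjusted p = 0.602, and from 0.65 without replicate 3 of WT GMPs to 1.92 without replicate 1 of WT GMPs, neither called), and with the block it was 1.47 and called (adjusted p = 0.0199). The effects in the 2 cell types differed by 2.24 with the block (adjusted p = 0.0168) and without it by 1.94 ± 1.28, which was not called (adjusted p = 0.654). Slc16a3 was higher in GMPs than in LSKs of URE mice (2.59 ± 0.76, adjusted p = 0.0362).

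Several members varied with the replicate number in every group. In 8 of 40 members tested over all libraries, replicates 1 and 4 were both above replicates 2 and 3 in each of the 4 groups (20%, next to 12.3% of 15935 genes), and in no member were they both below throughout (6.15% of all genes). The 8 were Hk1, Pcx, Pck2, Pdk2, Pfkfb2, Pfkfb3, Slc16a3 and the second Aldoa record. Pcx, pyruvate carboxylase, which feeds pyruvate into gluconeogenesis, held 7.68, 1.41, 0.819 and 6.84 CPM in replicates 1 to 4 of WT LSKs and 13.8, 2.401, 1.18 and 14.3 CPM in those of URE GMPs. Replicates 1 and 4 averaged 6.52 to 10.8 times replicates 2 and 3 across the groups for Pcx, 3.31 to 4.24 times for Hk1 and 3.32 to 7.42 times for Slc16a3. What the replicate numbers stand for is not given in the sources used here. In the unblocked tests this spread sits in the error of these genes, whose standard errors in LSKs, between URE and WT, were 0.997 for Pcx, 0.62 for Hk1 and 0.78 for Slc16a3.

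**Figure D5:**
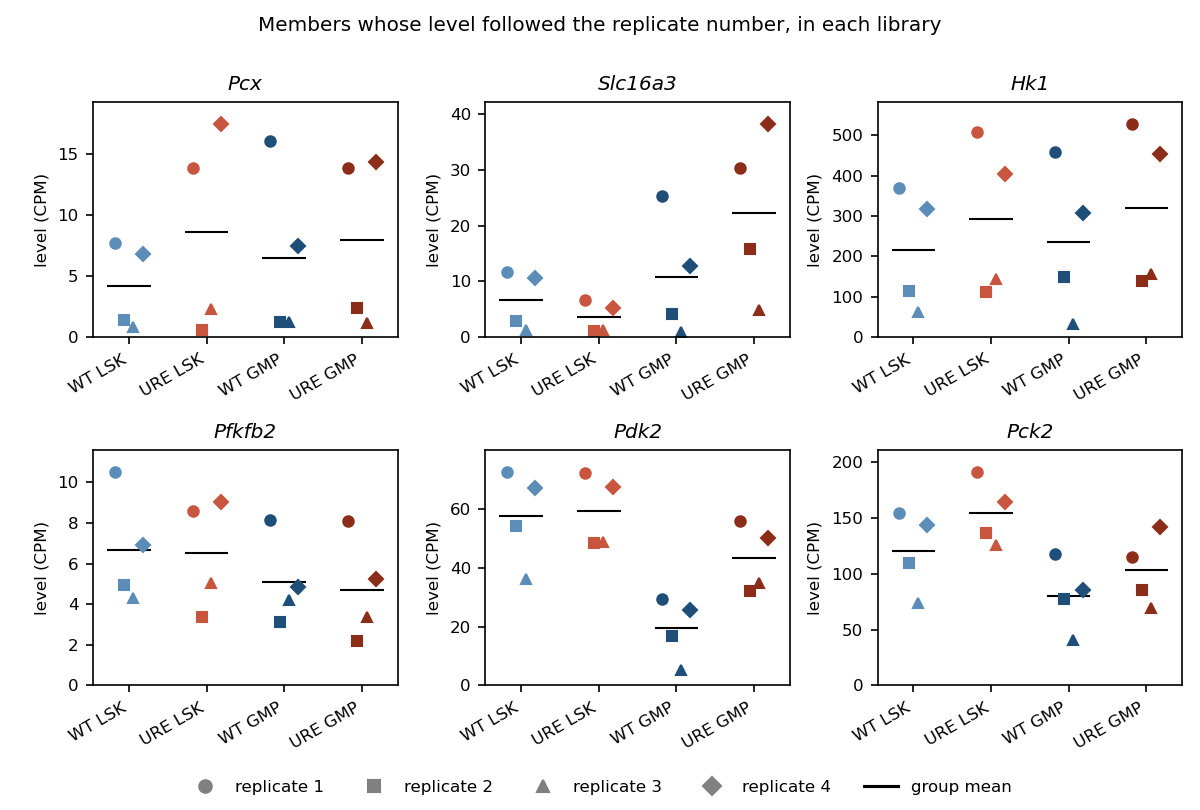
Level in CPM of 6 of the 8 members that varied with the replicate number, in each of the 16 libraries. Symbols mark the replicate number, lines the group mean, and each y axis starts at 0. In every group the circles and diamonds, replicates 1 and 4, lie above the squares and triangles, replicates 2 and 3.

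The other genes of these pathways and of their control were taken from a list of 59, of which 45 were tested in LSKs and 43 in GMPs. In URE LSKs 2 were lower and none higher (4.44%, next to the 6.14% above). They were Slc16a7, another monocarboxylate carrier (18.2 ± 2.46 CPM in WT and 4.07 ± 3.17 in URE, -2.18 ± 0.56, adjusted p = 0.0499), and Khk, which phosphorylates fructose (49.02 ± 9.48 and 26.6 ± 6.002 CPM, -0.92 ± 0.23, adjusted p = 0.0496). In URE GMPs 4 were higher and 2 lower (14%, next to 8.3%). Khk was again lower (-1.17 ± 0.27, adjusted p = 0.0279), as was Tigar, which breaks down fructose 2,6-bisphosphate (14.96 ± 4.04 and 6.35 ± 1.55 CPM, -1.24 ± 0.28, adjusted p = 0.0247).

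The genes that rose in URE GMPs were regulators and genes of glycogen metabolism. Hif1a, the oxygen-regulated subunit of the hypoxia-inducible factor, held 66.9, 80.4, 81.2 and 53.1 CPM in WT GMPs and 212, 391, 188 and 171 CPM in URE GMPs, without overlap (1.75 ± 0.28, adjusted p = 0.00523). Mlx, the partner of the glucose-sensing factors ChREBP and MondoA, held 58.3, 82.3, 47.3 and 57.6 and 127, 193, 93.1 and 186 CPM (1.27 ± 0.26, adjusted p = 0.0155). Gbe1, the glycogen branching enzyme, rose by 0.89 ± 0.16 (adjusted p = 0.00981) and Pygl, the liver glycogen phosphorylase, by 0.71 ± 0.17 (adjusted p = 0.0365). In LSKs none of these 4 was called. The effects in the 2 cell types differed for Hif1a (1.78 ± 0.40, adjusted p = 0.0414), Mlx (1.58 ± 0.35, adjusted p = 0.0369) and Gbe1 (1.16 ± 0.21, adjusted p = 0.0141), 3 of 46 tested, next to 1.22% of all genes. With the replicate block, 13 of the 43 were called in GMPs, next to 16.3% of all genes.

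The hypoxia response core ACGTG was found in 42.1% of the 57 member promoters against 19.6% of all, and GCGTG in 50.9% against 32.4%, on either strand. The E-box CACGTG, which contains ACGTG and is the site of Mlx and its kin, was in 12.3% against 7.15%. TGTGGT, the RUNX letters, and TTGCNNAA, those of C/EBP factors, were in 15.8% and 7.02% of member promoters against 16.8% and 10.8% of all. Promoters were found for 39 of the 40 symbols, all but Slc2a3, and several members have more than 1. Some of these overlap, as for Eno1, Aldoa and Pfkm, so that the same site can count more than once. The differences in share were not tested, and base composition was not compared.

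Over the whole module the effect of genotype differed between LSKs and GMPs for 2 of 40 members by the interaction test, Fbp1 and Pfkfb4 (5%, next to 1.22% of all 15935 genes, 0.866% with a larger and 0.351% with a smaller value in GMPs), and for 5 with the replicate block (next to 6.57%). Groups did not overlap between the genotypes for 5 of 40 members in LSKs, next to 12.6% of all genes, and for 3 of 39 in GMPs, next to 14.8%. They did not overlap between the cell types for 21 of 39 members in WT and 25 of 39 in URE, next to 31.4% and 26.6% of all genes.

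Markers of the cells that the gates can hold moved with both genotype comparisons. Of 6 monocyte progenitor markers, 3 of the 5 tested were lower in URE LSKs and 5 of 6 in URE GMPs, with summed levels of 52.1 to 102 CPM in WT LSKs and 12.9 to 27.9 in URE LSKs. In GMPs the sums overlapped, at 735 to 1074 CPM in WT and 361 to 1427 in URE, and the marker not called there, Ly6c2, stood at 306 ± 145 CPM in WT and 631 ± 408 in URE (adjusted p = 0.287). Of 9 neutrophil progenitor markers Elane and Ngp were higher and Prtn3 lower in URE LSKs, and Ngp was higher in URE GMPs, with summed levels of 54671 to 70103 CPM in WT GMPs and 73897 to 159580.0 in URE GMPs. Basophil and mast cell markers summed to 61.1 to 99.5 CPM in WT LSKs and 126 to 185 in URE LSKs, where Mcpt8 and Cpa3 were higher and the other 2 not called, and in URE GMPs Mcpt8 was higher and Prss34 lower. Of 7 stem and early progenitor markers 1, Flt3, was called, lower in URE LSKs and in URE GMPs, and the estimates of the other 6 pointed in both directions. Among the other lists, the megakaryocyte marker Itga2b was higher in URE LSKs, the erythroid Hbb-bt and the T cell marker Cd4 were lower there, and of the genes of the Cd16/32 gate Fcgr2b was lower in URE LSKs and Fcgr3 higher in URE GMPs. No monocyte, neutrophil, basophil or mast cell marker was at 0 in all libraries of a group. B cell markers summed to at most 6.54 CPM and T cell markers to at most 7.49 CPM in any library. The T cell marker Cd3e was at 0 in URE LSKs and in GMPs of both genotypes. The part of these shifts in the levels of Fbp1, Hk3, Pdk3, Pfkfb4 and Slc2a6 was not tested.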

How the data were processed

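RNA was sequenced from sorted LSKs and GMPs of URE and WT mice, 4 mice per group. Per the labels and the study's methods, the authors quantified the reads with salmon, a tool that assigns reads to transcripts, summed the estimates per gene with tximport and deposited the estimated counts as whole numbers, without normalization, for 54347 genes of GRCm38. The version of salmon and the annotation release are not given in the sources used here. Identifiers were matched to GENCODE M21 of GRCm38, which held 54094 of them and gave coordinates and exonic lengths. No column of another series was present.

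The estimated counts were tested with edgeR 4.0.16 (limma 3.58.1, R 4.3.3) after TMM normalization and filterByExpr, by the quasi-likelihood test with Benjamini-Hochberg adjustment over all genes. URE was compared with WT within each cell type and GMPs with LSKs within each genotype on the libraries concerned, and the interaction over all 16 libraries. Calls needed an adjusted p below 0.05 and more than a 1.5-fold change, the interaction the former only. Standard errors (±) follow from each estimate and its F statistic. CPM values use effective library sizes, per-length levels divide them by the summed exonic length, and the prior count on the log2 CPM scale was 2. The genotype comparisons share libraries with the cell type comparisons, and no correlation or overlap was computed across them.

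Same-numbered libraries deviated together from their group means (correlations from 0.237 to 0.711 over all comparisons), and replicate numbers come from the labels, so every test was repeated with a replicate block. No library was a copy of another (lowest chi-square per degree of freedom within a group 32.4). Alternatives were DESeq2 1.42.0, other scalings and filters, a joint fit, a stricter threshold, either pair of replicates alone, the level of 4 Y-linked genes as a covariate and leaving out each library. The procedure was tested on simulated counts drawn without an effect of the replicate number, unlike these data, and the outcome is not reported here.

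All 40 members could be named, with library values for those called between genotypes or in the interaction, and with group means or changes by pathway step for the others, some of which are given by library as well. Of the other pathway genes, those called between genotypes were named. The list of genes closest to Fbp1, planned to hold 5, was cut to the first 3, and the remainder is not reported here. The members, lists, markers and tests were chosen with earlier results of these data known. Promoters (RefSeq, GRCm38.p6) were read from 250 bases before to 50 after the start, with both strands searched. Plots were drawn with matplotlib 3.10.9.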

Additional observations from a re-analysis of the deposited data

Results flagged for a closer look

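The effect of genotype differed between LSKs and GMPs, by a test of the difference itself, for Fbp1 (4.49 on the log2 scale, GMP minus LSK) and Pfkfb4 (2.54), and among the other pathway genes for Gbe1 (1.16), Hif1a (1.78) and Mlx (1.58).

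A single library stood far from the other 3 of its group in 9 of the 160 member groups examined, where chance alone gives about 8. Hk2 was at 57.2 CPM in replicate 2 of WT LSKs against 24.9 to 27.9 in the others, and Pgd at 41.3 CPM in replicate 3 of WT LSKs against 75.2 to 81.6. Pfkl was at 354 CPM in replicate 1 of URE GMPs against 237 to 253, and Slc2a6 at 5.69 CPM in replicate 2 of URE GMPs against 1.38 to 2.08. Tkt was at 523 CPM and Pdk1 at 96.7 CPM in replicate 1 of URE LSKs, against 392 to 414 and 67.3 to 70.6 in the other libraries. Taldo1 was at 611 CPM in replicate 2 of WT GMPs against 490 to 506. Eno2 had 7 counts in replicate 1 of WT GMPs (0.303 CPM) and 1 count in replicate 3 of URE GMPs (0.0512 CPM), with 0 in the other libraries of both groups.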

How the results depend on the processing

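No member changed direction while called under any alternative. Of 4171 results of single members recomputed, 3991 kept their side of the threshold, 135 lost a call and 45 gained one. Between URE and WT in GMPs the 2 calls became 4 with the replicate block, 1 in the joint fit of all libraries, at an adjusted p under 0.01 or with the Y-linked covariate, and 0 with replicates 2 and 3 only, where 108 of 14222 genes were called in all. Between GMPs and LSKs of WT the 22 calls became 14 at an adjusted p under 0.01 (2287 of 14767 genes in all) and 14 with replicates 2 and 3 only (2507 of 15290), and in URE the 25 became 6 with replicates 2 and 3 only (810 of 14715). In the interaction the 2 calls became 5 with the replicate block, 1 at an adjusted p under 0.01, 4 with replicates 1 and 4 only and 1 with replicates 2 and 3 only (2 of 16307 genes in all). Without 1 library at a time, 2 to 3 members were called in LSKs and 1 to 2 in GMPs between the genotypes, 18 to 22 between the cell types in WT and 19 to 25 in URE, and 1 to 3 in the interaction. The lowest interaction count came without replicate 4 of URE GMPs, replicate 4 of URE LSKs or replicate 2 of WT GMPs. In URE LSKs 1 of 3 calls was higher without replicate 2 of WT LSKs, and 1 of 4 with replicates 1 and 4 only. With the replicate block, 4 members were called in LSKs, and 29 in WT and 28 in URE between the cell types, next to 40.9% and 31.9% of all genes. Fbp1 and Hk3 in LSKs kept their calls in all 20 alternatives. With the longest transcript as length, 96 of 156 shares of a gene in its step moved by less than 1 SD and 60 by more, and the share of Hk3 in WT LSKs became 33.1%. In URE GMPs the share of Hk3 became 41.96%, below the 49.1% of Hk1. Depth limits genes near the counting limit, such as Slc2a6 in LSKs and Eno2 in GMPs.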
